A study of Mus musculus with 20 samples.

Results

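The 10 genes B2m, H2-K1, H2-D1, Tap1, Tap2, Psmb8, Psmb9, Nlrc5, H2-Aa and H2-Ab1 carry out antigen presentation on major histocompatibility complex (MHC) molecules. They were taken from the deposited count tables by symbol, 10 of 50559 genes, and compared gene by gene across tumors and livers. Each of the 10 symbols was present in both tables, and each gene passed the filter on low counts (at least 1 CPM, a read count scaled to the size of its library, in at least 5 libraries).

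RNA was sequenced from 5 livers of control mice and from 5 mouse liver tumors each of the FGF19 + MYC, Aldafermin + MYC and sgTrp53 + MYC models. All were wild-type C57BL/6J females, injected at 6 to 8 weeks of age through the tail vein with plasmids that hepatocytes take up (hydrodynamic gene transfer), together with a plasmid for the SB100X transposase, which inserts the transgenes into the genome. FGF19, a human enterokine, and Aldafermin, an FGF19 analog with an altered N-terminus, were expressed from a plasmid of the same backbone, and each was combined with a MYC plasmid. In sgTrp53 + MYC mice, Cas9 and a guide RNA against Trp53 came from a plasmid in place of the growth factor, so that MYC was shared by all 15 tumors. MYC was driven by the EF1a promoter, which is not specific to hepatocytes, and each tumor library came from a snap frozen tumor, so that stroma and leukocytes were sampled along with tumor cells. The labels call the control livers non treated, whereas the methods describe mice that received a red fluorescent protein plasmid.

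MHC class I molecules show peptides from inside the cell to CD8 T cells. A heavy chain such as H2-K1 or H2-D1 pairs with beta-2 microglobulin (B2m) and is loaded with peptides that the proteasome cuts and the TAP1/TAP2 transporter carries into the endoplasmic reticulum. Interferon gamma induces Psmb8 and Psmb9, catalytic subunits that replace constitutive ones in the immunoproteasome, and NLRC5, the transactivator of class I genes. Class II molecules, of which H2-Aa and H2-Ab1 encode the alpha and beta chains of I-A, show endocytosed peptides to CD4 T cells, and are made mainly by dendritic cells, macrophages and B cells.

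In GRCm39 (GENCODE M39), 8 of the 10 genes lie in the MHC on chromosome 17. H2-K1 spans chr17:34214987-34219321 on the minus strand and H2-D1 chr17:35481691-35486475 on the plus strand. Between them, Psmb9 (chr17:34400960-34406738, minus), Tap1 (chr17:34405996-34416199, plus), Psmb8 (chr17:34416690-34420428, plus) and Tap2 (chr17:34422501-34435829, plus) stand side by side, with Psmb9 and Tap1 overlapping in GENCODE and their RefSeq start sites 226 bases apart. The class II genes H2-Ab1 (chr17:34476663-34488393, plus) and H2-Aa (chr17:34493404-34506798, minus) follow. B2m is at chr2:121977957-121983594 and Nlrc5 at chr8:95160984-95253900, both on the plus strand.

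The sequences just before the start sites show what H2-K1 and H2-D1 share and how B2m and Psmb8 differ from them. Capitals in the H2-K1 and H2-D1 stretches mark first the kappa B site of class I enhancer A. They then mark the interferon response element, read on the other strand as GAA, 2 free bases and GAAAC. In B2m they mark GAAA, 2 free bases and GAAA, an interferon-stimulated response element core, and in Psmb8 TTCNNNGAA, the core of a gamma-activated sequence.
H2-K1: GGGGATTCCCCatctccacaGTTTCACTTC
H2-D1: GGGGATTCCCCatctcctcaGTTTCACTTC
B2m: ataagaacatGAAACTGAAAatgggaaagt
Psmb8: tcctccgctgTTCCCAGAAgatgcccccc
These stretches are from GRCm39, at chr17:34219403-34219432 (minus), chr17:35481899-35481928 (plus), chr2:121978019-121978048 (plus) and chr17:34417062-34417090 (plus). Counted back from the RefSeq start, they cover bases 111 to 82 of H2-K1, 171 to 142 of H2-D1, 149 to 120 of B2m and 107 to 79 of Psmb8. GENCODE places the H2-K1 stretch in an intron of the antisense Gm53999, and the other stretches in the 5′ untranslated region of longer transcripts of the gene itself.

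The H2-K1 and H2-D1 stretches were identical at 29 of 30 bases, and at 166 of 190 bases (87.4%) over the wider upstream region. RefSeq promoters (250 bases before the start; GRCm38.p6 table placed on GRCm39 by exact match) were available for 7 of the 10 genes, all but Tap2, Nlrc5 and H2-Ab1. Both strands were searched, except for the kappa B site, which was searched only as written on the strand of the gene. None of the motifs contains another. The kappa B site was found on that strand in 6 of 32851 promoters (0.0183%). The interferon response element of H2-K1 was found in 476 (1.45%), with H2-K1 and H2-D1 among both. The element marked in B2m, found in 978 promoters (2.98%), occurred only in B2m among the 7, and TTCNNNGAA, found in 2306 promoters (7.02%), only in Psmb8. ATTGG, the CCAAT box, was in 6 of the 7, all but Psmb8, and in 11120 of all promoters (33.8%). The matches of Psmb9 and Tap1 are the same bases, counted for both genes because their windows overlap. They lie 8 to 4 bases before the Psmb9 start and 222 to 218 before the Tap1 start. A match of letters is a description of the sequence only.

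Reads counted on genes numbered from 18004977 to 66354724 a library. The sgTrp53 + MYC libraries stood in a table of their own with 54042455 to 66354724 reads, 5.34% to 6.82% not aligned and 11.1% to 14.6% ambiguous. In the other 15 libraries 15.3% to 34.0% were not aligned and 3.03% to 6.30% ambiguous, so that table and group cannot be told apart in comparisons with sgTrp53 + MYC tumors. Trp53 itself stood at 18.7 to 79.9 CPM in sgTrp53 + MYC tumors, below the 90.8 to 176 CPM of the other tumors without overlap, and at 28.8 to 36.4 CPM in livers. The tumors carried Afp and Gpc3, liver tumor markers, at levels far above livers (log2 fold change in FGF19/Aldafermin + MYC tumors 10.70 and 7.73, in sgTrp53 + MYC tumors 8.26 and 6.72), and the summed level of 6 hepatocyte markers was 3309 to 27658 CPM against 180870 to 224460 CPM in livers.

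FGF19/Aldafermin + MYC tumors were compared with livers to ask how the 10 genes differed between FGF19-driven tumors and liver. In FGF19/Aldafermin + MYC tumors, 8 of the 10 genes were lower than in livers, from 2.34-fold for Tap1 to 8.10-fold for Nlrc5, and none was higher. The 8 were the class I genes, their peptide transporter, both immunoproteasome subunits and Nlrc5, whereas the class II genes H2-Aa and H2-Ab1 did not pass the test. In the same comparison 73.7% of the 14333 tested genes were called, 34.5% lower and 39.2% higher as shares of all tested genes (edgeR quasi-likelihood test, Benjamini-Hochberg adjusted p under 0.05). Over the 10 genes the log2 fold changes had a median of -2.12, beside 0.10 over all tested genes. All 8 genes were lower without overlap in FGF19/Aldafermin + MYC tumors than in livers, as were 25.7% of all tested genes. With the sgTrp53 + MYC tumors included, each of the 8 was lower in 15 of 15 tumors than in every liver. The share of all tested genes for the 15 tumors together was not computed. In such bulk samples, fewer cells of a type and less RNA per cell cannot be told apart.

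**Figure D1:**
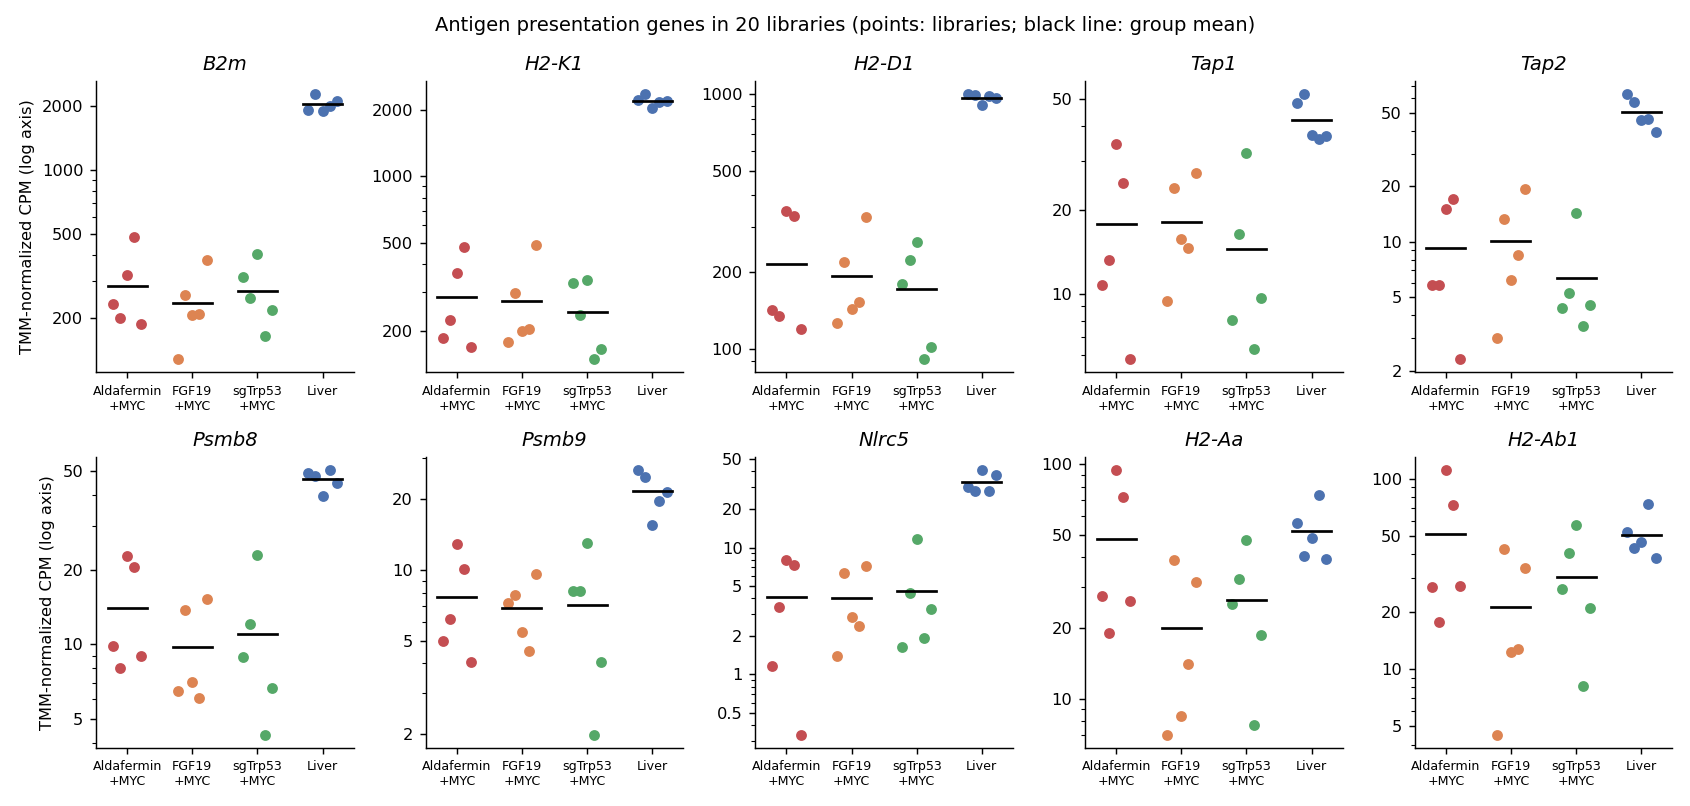
TMM-normalized CPM (log axis, a separate scale for each gene) of the 10 genes in 5 libraries each of Aldafermin + MYC, FGF19 + MYC and sgTrp53 + MYC tumors and livers. Points are libraries and the black line is the group mean. For B2m, H2-K1, H2-D1, Tap1, Tap2, Psmb8, Psmb9 and Nlrc5 all 15 tumors lie below all 5 livers, whereas for H2-Aa and H2-Ab1 tumors and livers overlap.

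B2m, the invariant light chain that every classical class I molecule needs, showed a wide gap between livers and tumors. Its level in replicates 1 to 5 was 234, 200, 321, 484 and 188 CPM in Aldafermin + MYC tumors, 129, 258, 207, 210 and 378 CPM in FGF19 + MYC tumors, 315, 250, 403, 165 and 220 CPM in sgTrp53 + MYC tumors, and 1926, 2284, 1898, 2010 and 2134 CPM in livers. The highest tumor, at 484 CPM, was far below the lowest liver, at 1898 CPM, and the 3 tumor groups overlapped. B2m was 7.89-fold lower in FGF19/Aldafermin + MYC tumors than in livers (log2 fold change -2.98 ± 0.24 SE, edgeR adjusted p = 1.45e-09).

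The heavy chains were also far lower in tumors than in livers. H2-K1 was at 184, 224, 366, 479 and 169 CPM in Aldafermin + MYC tumors, 177, 297, 199, 203 and 486 CPM in FGF19 + MYC tumors, 327, 236, 338, 149 and 165 CPM in sgTrp53 + MYC tumors, and 2218, 2355, 2031, 2171 and 2204 CPM in livers. The highest tumor was at 486 CPM and the lowest liver at 2031 CPM, and H2-K1 was 7.89-fold lower in FGF19/Aldafermin + MYC tumors (-2.98 ± 0.27, edgeR adjusted p = 6.09e-09). H2-D1 was at 142, 134, 349, 333 and 120 CPM in Aldafermin + MYC tumors, 126, 218, 144, 153 and 329 CPM in FGF19 + MYC tumors, 179, 222, 263, 91.4 and 101 CPM in sgTrp53 + MYC tumors, and 999, 992, 904, 984 and 965 CPM in livers. Its livers differed by less than its tumors did within any group, and the fold was smaller than that of H2-K1, 4.74 (-2.24 ± 0.29, edgeR adjusted p = 9.34e-07).

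H2-K1 and H2-D1 share sequence with other class I genes, and reads that fit several genes were left out of the gene counts, so that the split between symbols is uncertain. When the counts of 17 class I symbols were summed, the sum was lower in FGF19/Aldafermin + MYC tumors by a log2 fold change of -2.89 ± 0.24 (edgeR adjusted p = 1.48e-09). This sum includes H2-Q10, whose mean in livers, 3100 CPM, was above those of H2-K1 (2196 CPM) and H2-D1 (969 CPM). It does not restore the reads left out, and does not show the change of H2-K1 or H2-D1 by itself. Of the other class I genes, 13 of 15 were tested, 12 were lower and none higher, beside 34.5% and 39.2% of all tested genes. Their median was -2.71. H2-Q10, a secreted class I molecule made by hepatocytes, averaged 3100 CPM in livers and 381 CPM in Aldafermin + MYC, 338 CPM in FGF19 + MYC and 222 CPM in sgTrp53 + MYC tumors. Cd1d1, which presents lipids to NKT cells, was lower by -5.51 ± 0.65 on the log2 scale (edgeR adjusted p = 2.82e-07), and H2-Q1, a nonclassical class I gene, by -4.87 ± 0.80. H2-T23, which encodes Qa-1, a ligand of an NK cell receptor, was lower by -3.22 ± 0.35.

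The TAP transporter subunits were both lower, with unequal gaps to the livers. Tap1 was at 10.7, 13.2, 34.5, 25.04 and 5.84 CPM in Aldafermin + MYC tumors, 9.38, 23.8, 15.7, 14.6 and 27.1 CPM in FGF19 + MYC tumors, 8.02, 16.3, 32.0, 6.33 and 9.64 CPM in sgTrp53 + MYC tumors, and 48.3, 51.9, 37.1, 35.9 and 36.9 CPM in livers. The highest tumor, Aldafermin + MYC replicate 3, came within 2 CPM of the lowest liver, and the fold was 2.34, the smallest of the 8 (-1.22 ± 0.37, edgeR adjusted p = 0.00624). Tap2 was at 5.83, 5.85, 15.05, 17.2 and 2.33 CPM in Aldafermin + MYC tumors, 3.01, 13.4, 6.19, 8.45 and 19.4 CPM in FGF19 + MYC tumors, 4.37, 5.29, 14.3, 3.53 and 4.53 CPM in sgTrp53 + MYC tumors, and 62.9, 57.2, 45.7, 46.3 and 39.4 CPM in livers. For this subunit the lowest liver had 39.4 CPM and the highest tumor 19.4 CPM, and the fold was 5.20 (-2.38 ± 0.42, edgeR adjusted p = 4.12e-05).

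The partners of the transporter differed in direction. Of 8 genes of the class I loading complex and peptide supply, 3 were lower and 4 higher, with a median of 0.05, beside 34.5% lower and 39.2% higher over all tested genes. Tapbp, which encodes tapasin and holds the empty heavy chain at TAP, was lower by -2.06 ± 0.32 (edgeR adjusted p = 1.1e-05). Tapbpl, a peptide editor related to tapasin, was lower by -1.19 ± 0.15, and Erap1, which trims peptides in the endoplasmic reticulum, by -1.10 ± 0.13. The 4 higher genes were the general chaperones Hspa5, Canx and Pdia3 and the translocon subunit Sec61a1, with log2 fold changes between 0.39 and 0.87; they rank below the named 3 by size and were named after their values were seen.

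The immunoproteasome subunits Psmb8 and Psmb9 (LMP7 and LMP2) were lower in FGF19/Aldafermin + MYC tumors by 3.97-fold and 2.98-fold. Psmb8 was at 9.89, 8.01, 22.7, 20.5 and 8.98 CPM in Aldafermin + MYC tumors, 6.47, 13.8, 7.05, 6.07 and 15.3 CPM in FGF19 + MYC tumors, 8.91, 12.05, 22.96, 4.33 and 6.65 CPM in sgTrp53 + MYC tumors, and 49.3, 47.8, 39.6, 50.7 and 44.9 CPM in livers. Every liver was above 39 CPM and no tumor above 22.96 CPM (-1.99 ± 0.33, edgeR adjusted p = 1.94e-05). Psmb9 was at 4.96, 6.15, 12.9, 10.1 and 4.07 CPM in Aldafermin + MYC tumors, 7.20, 7.83, 5.43, 4.52 and 9.60 CPM in FGF19 + MYC tumors, 8.10, 8.14, 13.1, 1.99 and 4.05 CPM in sgTrp53 + MYC tumors, and 26.7, 24.97, 15.5, 19.7 and 21.4 CPM in livers. Here the highest tumor, sgTrp53 + MYC replicate 3, was close to the lowest liver (FGF19/Aldafermin + MYC against livers -1.58 ± 0.33, edgeR adjusted p = 0.000248).

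The constitutive subunits whose places they take did not move with them. Psmb5 averaged 89.5 CPM in Aldafermin + MYC tumors, 86.5 CPM in FGF19 + MYC tumors, 63.1 CPM in sgTrp53 + MYC tumors and 64.0 CPM in livers, and none of Psmb5, Psmb6 and Psmb7 passed the test in any of the 4 comparisons. Psmb10, the inducible counterpart of Psmb7, went the other way: it averaged 162 ± 48.2 CPM (SD, n = 5) in Aldafermin + MYC, 197 ± 112 CPM (SD, n = 5) in FGF19 + MYC tumors, 119 ± 54.6 CPM (SD, n = 5) in those with sgTrp53 + MYC, and 63.5 ± 4.07 CPM (SD, n = 5) in livers. It was higher than in livers in FGF19/Aldafermin + MYC tumors (1.49 ± 0.28, edgeR adjusted p = 9.02e-05) and in sgTrp53 + MYC tumors (0.91 ± 0.30, edgeR adjusted p = 0.0123). Its list holds 6 genes, with proteasome assembly and activator genes among them. In FGF19/Aldafermin + MYC tumors 2 were higher and 3 lower (median -0.21), beside 39.2% and 34.5% of all tested genes. Psme3, the nuclear activator PA28 gamma, was higher (1.18 ± 0.12), and Psme4 (PA200) led the lower ones (-0.76 ± 0.13).

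The ratio of each inducible to its constitutive subunit, taken within a library, sets these changes side by side. The log2 ratio of Psmb8 to Psmb5 in replicates 1 to 5 was -3.34, -3.06, -1.73, -1.88 and -3.83 in Aldafermin + MYC tumors, -4.39, -2.58, -3.34, -3.36 and -2.35 in FGF19 + MYC tumors, -3.44, -2.59, -1.02, -3.62 and -2.75 in sgTrp53 + MYC tumors, and -0.36, -0.28, -0.46, -0.69 and -0.47 in livers. All tumors were below all livers, and FGF19/Aldafermin + MYC tumors were lower by 2.53 ± 0.28 (two-sided exact permutation over 3003 splits, p = 0.000333, which is the lowest possible, adjusted p = 0.00133 over 12 tests). For sgTrp53 + MYC tumors the difference from livers was -2.23 ± 0.46 (two-sided exact permutation over 252 splits, p = 0.00794, again the lowest possible, adjusted p = 0.0190).

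For Psmb9 over Psmb6 the group means were -4.71 in Aldafermin + MYC, -4.69 in FGF19 + MYC and -4.75 in sgTrp53 + MYC tumors, and -2.97 in livers. FGF19/Aldafermin + MYC tumors differed from livers by -1.73 ± 0.28 (exact permutation test, adjusted p = 0.00133). In sgTrp53 + MYC tumors the difference was -1.77 ± 0.50 (exact permutation test, p = 0.0238, adjusted p = 0.0476), with replicate 3, at -3.19, inside the liver range of -3.33 to -2.54, and the adjusted p was 0.0635 when liver replicate 1, 2 or 5 was left out. The log2 ratio of Psmb10 to Psmb7 was higher than in livers, by 1.33 ± 0.13 in FGF19/Aldafermin + MYC tumors (exact permutation test, adjusted p = 0.00133) and by 0.92 ± 0.14 in sgTrp53 + MYC tumors (exact permutation test, adjusted p = 0.0190).

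**Figure D2:**
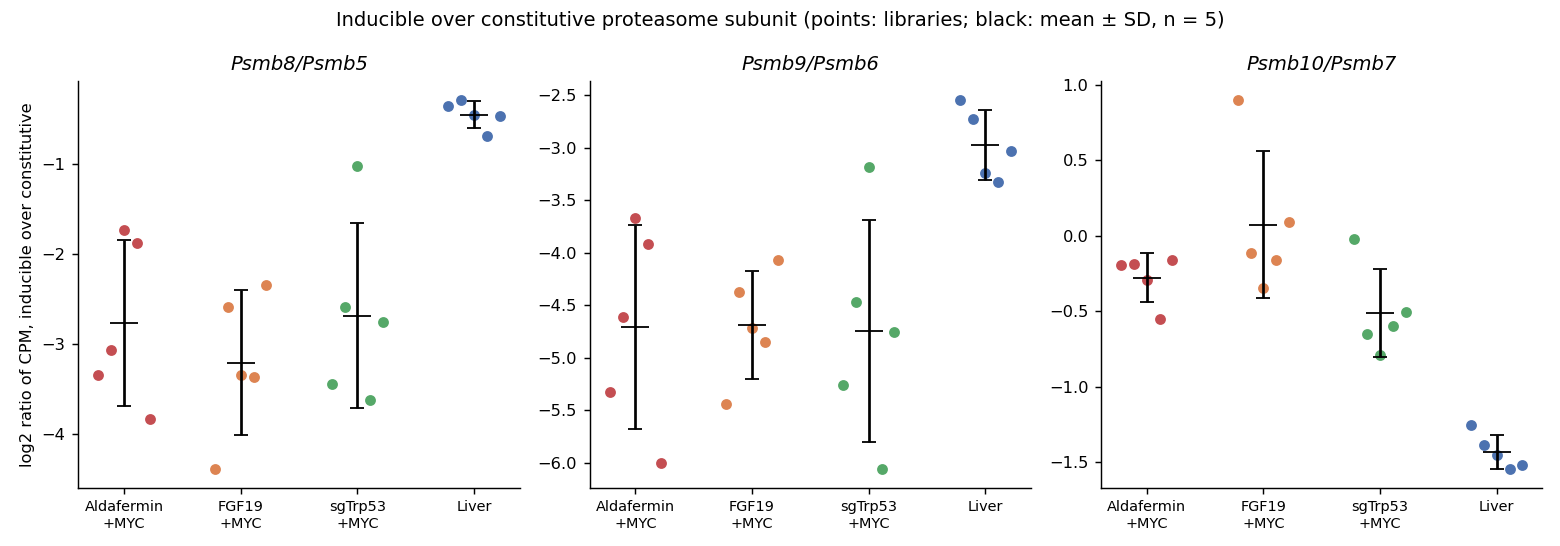
Log2 ratio of CPM of an inducible over a constitutive proteasome subunit in the same library, for 3 pairs and 4 groups. Points are libraries, and black marks are the mean and SD of 5 libraries. Tumors lie below livers for Psmb8/Psmb5, below them except sgTrp53 + MYC replicate 3 for Psmb9/Psmb6, and above them for Psmb10/Psmb7.

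Nlrc5, the transactivator of class I genes, had the largest fold of the 10 genes in this comparison. It was at 1.17, 3.37, 8.03, 7.31 and 0.337 CPM in Aldafermin + MYC tumors, 1.40, 6.26, 2.83, 2.41 and 7.17 CPM in FGF19 + MYC tumors, 1.65, 4.38, 11.6, 1.95 and 3.30 CPM in sgTrp53 + MYC tumors, and 29.8, 27.8, 40.9, 27.7 and 37.1 CPM in livers. The lowest value, in Aldafermin + MYC replicate 5, rests on 12 counts, and the highest tumor, sgTrp53 + MYC replicate 3, was at 11.6 CPM. Nlrc5 was 8.10-fold lower in FGF19/Aldafermin + MYC tumors than in livers (-3.02 ± 0.54, edgeR adjusted p = 4.82e-05).

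NLRC5 and its class II relative CIITA act through an enhanceosome of RFX, CREB and NF-Y factors on MHC promoters. Of the 7 genes of this complex, 4 were higher and 1 lower in FGF19/Aldafermin + MYC tumors, with a median of 0.38, beside 39.2% higher and 34.5% lower over all tested genes. Rfxank, an RFX subunit, was lower (-1.26 ± 0.18, edgeR adjusted p = 3.43e-06), while the NF-Y subunits Nfya (1.01 ± 0.21) and Nfyc (0.67 ± 0.13) were higher. Ciita averaged between 1.58 and 2.37 CPM in the 4 groups and passed no test (-0.40 ± 0.60 against livers, edgeR adjusted p = 0.556).

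The class II genes overlapped between tumors and livers. H2-Aa was at 27.4, 19.1, 94.2, 72.1 and 26.1 CPM in Aldafermin + MYC tumors, 7.03, 39.1, 8.44, 14.1 and 31.3 CPM in FGF19 + MYC tumors, 25.4, 32.4, 47.6, 7.75 and 18.7 CPM in sgTrp53 + MYC tumors, and 56.2, 40.5, 48.2, 74.0 and 39.3 CPM in livers. H2-Ab1 was at 26.9, 17.7, 111, 72.7 and 27.2 CPM in Aldafermin + MYC tumors, 4.52, 42.6, 12.3, 12.7 and 34.1 CPM in FGF19 + MYC tumors, 26.2, 40.7, 56.8, 8.14 and 20.9 CPM in sgTrp53 + MYC tumors, and 52.1, 43.3, 46.5, 73.3 and 38.1 CPM in livers. Aldafermin + MYC replicate 3 exceeded every liver for both chains, whereas 12 of 15 tumors for H2-Aa and 10 of 15 for H2-Ab1 were below every liver.

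Against livers, H2-Aa changed in FGF19/Aldafermin + MYC tumors by -0.74 ± 0.44 on the log2 scale (95% interval -1.60 to 0.12, edgeR adjusted p = 0.136) and H2-Ab1 by -0.62 ± 0.48 (-1.57 to 0.33, adjusted p = 0.253), so that neither passed the test and the intervals include falls of more than 2-fold. With FGF19 + MYC tumors alone, 9 of the 10 genes were lower than in livers (32.9% of all tested genes were called lower), the ninth being H2-Aa (-1.36 ± 0.53, edgeR adjusted p = 0.0274), and H2-Ab1 stood at -1.25 ± 0.58 (adjusted p = 0.0609). For H2-Aa the highest FGF19 + MYC tumor, at 39.07 CPM, was only just below the lowest liver, at 39.29 CPM. With Aldafermin + MYC tumors alone 8 were lower (31.9% of all tested genes), and H2-Aa (-0.11 ± 0.52) and H2-Ab1 (0.01 ± 0.57) were not called.

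Of the other class II genes, 9 of 12 were tested, with a median of -0.10 in FGF19/Aldafermin + MYC tumors against livers. There 2 were higher and none lower, beside 39.2% and 34.5% of all tested genes. The higher genes were Ifi30, a lysosomal thiol reductase (2.27 ± 0.29, edgeR adjusted p = 7.29e-07), and Lgmn, a lysosomal protease (0.71 ± 0.20, adjusted p = 0.00371). Cd74, the invariant chain that escorts class II molecules, was not called (-0.81 ± 0.52, adjusted p = 0.166).

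The sgTrp53 + MYC tumors were compared with the same 5 livers, and 8 of the 10 genes were lower and none higher, beside 69.9% of all tested genes called, 33% lower and 36.9% higher (edgeR). All 8 were lower without overlap, as were 27.4% of all tested genes, and the median log2 fold change over the 10 was -2.29 (0.07 over all tested genes). B2m was lower by 7.57-fold (-2.92 ± 0.31, edgeR adjusted p = 8.85e-08), H2-K1 by 9.04-fold (-3.18 ± 0.35, adjusted p = 1.26e-07) and H2-D1 by 5.65-fold (-2.50 ± 0.37, adjusted p = 6.16e-06).

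For the transporter, Tap1 was 2.90-fold (-1.54 ± 0.45, edgeR adjusted p = 0.00544) and Tap2 7.85-fold lower in sgTrp53 + MYC tumors (-2.97 ± 0.54, adjusted p = 6.76e-05). Psmb8 was 4.23-fold (-2.08 ± 0.41, adjusted p = 0.000154) and Psmb9 3.06-fold lower (-1.61 ± 0.40, adjusted p = 0.00140). Nlrc5 was 7.12-fold lower (-2.83 ± 0.68, adjusted p = 0.00108), and without replicate 3, its highest tumor, the log2 fold change was -3.53. H2-Aa (-0.97 ± 0.52, adjusted p = 0.105) and H2-Ab1 (-0.73 ± 0.57, adjusted p = 0.263) were not called. Without sgTrp53 + MYC replicate 3, H2-Aa passed as the ninth gene (-1.29, adjusted p = 0.0451).

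The related lists gave these counts in sgTrp53 + MYC tumors against livers, beside 33% lower and 36.9% higher over all tested genes. All 13 tested other class I genes were lower, with a median of -2.85, among them H2-Q10 (-3.80 ± 0.32), Cd1d1 (-4.91 ± 0.85) and H2-Q1 (-5.58 ± 1.09). In the loading list 4 of 8 were lower and none higher, led by Tapbp (-2.35 ± 0.41), Tapbpl (-1.99 ± 0.19) and Erap1 (-1.30 ± 0.15). In the enhanceosome list 4 of 7 were higher, with Rfxap (0.98 ± 0.15) and Nfya (0.93 ± 0.23) the largest, and 1 lower, Rfxank (-1.42 ± 0.22). In the class II list 1 of 9 was higher, Ifi30 (2.13 ± 0.31), and 1 lower, the weakly expressed H2-DMb2 (-1.25). Of the 6 other immunoproteasome and activator genes 2 were higher, Psme3 (1.02 ± 0.13) and Psmb10, and 2 lower, Psme4 (-0.78 ± 0.15) and Psme2, a subunit of the proteasome activator PA28 (-0.66).

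**Figure D3:**
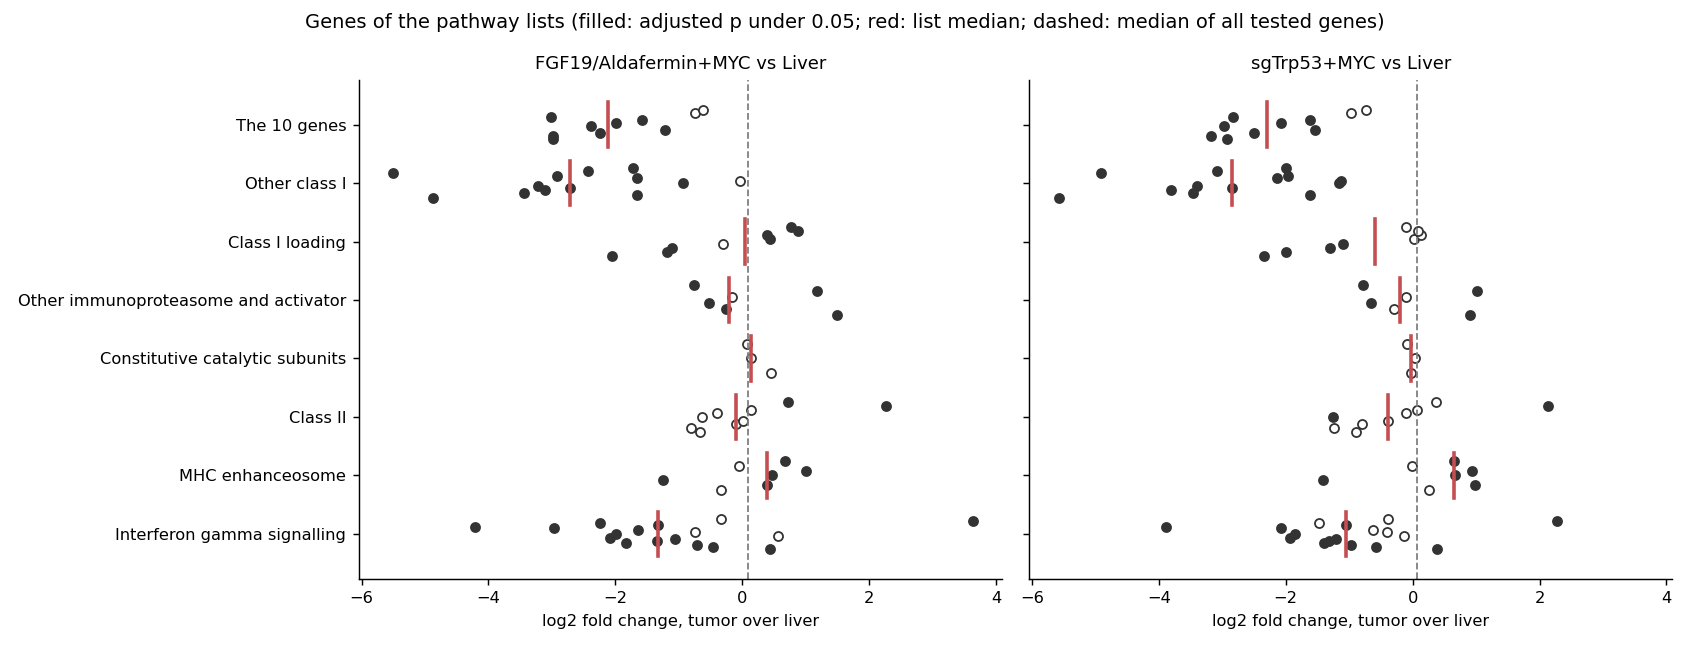
Log2 fold change, tumor over liver, of each tested gene of the pathway lists, for FGF19/Aldafermin + MYC tumors (left) and sgTrp53 + MYC tumors (right), which share the livers. Filled points passed the adjusted threshold, the red line is the list median and the dashed line the median of all tested genes. The 10 genes (medians -2.12 and -2.29) and the other class I genes (-2.71 and -2.85) lie left of the dashed line, and the constitutive catalytic subunits near it.

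Interferon gamma signaling, which induces most of these genes, was followed by a list of 19 genes, of which 17 were tested. In FGF19/Aldafermin + MYC tumors 12 were lower and 2 higher than in livers, with a median of -1.33. All tested genes gave 34.5% lower and 39.2% higher, with a median of 0.10. In sgTrp53 + MYC tumors 10 were lower and 2 higher, with a median of -1.06, beside 33% and 36.9% of all tested genes, with a median of 0.07. The transcription factor Irf1 was lower (-1.06 ± 0.24, edgeR adjusted p = 0.000549, and -1.21 ± 0.29, adjusted p = 0.000986). The interferon-inducible GTPases Iigp1 (-4.21 ± 0.56 and -3.89 ± 0.72) and Igtp (-2.96 ± 0.52 and -2.07 ± 0.64) were also lower. The chemokine Cxcl10 was higher (3.63 ± 0.66 and 2.28 ± 0.66). Ifng itself had at most 11 counts in any library and was not tested.

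Aldafermin + MYC and FGF19 + MYC tumors were compared to ask whether the analog and the parent hormone gave tumors that differ in these genes. None of the 10 genes passed the test, beside 0% of all tested genes (edgeR), and all 10 overlapped between the groups, beside 0.391% of all tested genes that were lower and 1.07% higher without overlap. With DESeq2 and with the likelihood ratio test of edgeR the count was also 0, beside 0.67% and 0.412% of all tested genes. At an unadjusted p under 0.05 the edgeR test gave 2 of the 10, beside 7.31% of all tested genes, and these were the class II genes.

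H2-Aa averaged 47.8 ± 33.4 CPM (SD, n = 5) in Aldafermin + MYC and 19.98 ± 14.4 CPM (SD, n = 5) in those with FGF19 + MYC, which is a log2 difference of 1.25 ± 0.53 (95% interval 0.22 to 2.29, edgeR adjusted p = 0.587). H2-Ab1 averaged 51.1 ± 39.7 CPM (SD, n = 5) and 21.2 ± 16.2 CPM (SD, n = 5), a difference of 1.26 ± 0.58 (0.13 to 2.39, adjusted p = 0.655). Without Aldafermin + MYC replicate 3, the highest tumor, the differences were 0.85 and 0.76. The other 8 genes ranged from -0.13 for Tap2 (95% interval -1.13 to 0.86) to 0.52 for Psmb8 (-0.25 to 1.30), and the interval of Nlrc5 was the widest of these 8 (-1.22 to 1.22). Differences of 2-fold lie within the intervals of Tap2 (lower), Psmb8 (higher) and Nlrc5 (either way). B2m, with the narrowest interval (-0.30 to 0.84), differed by 0.27. Without 1 library or under another setting, the sign turned for 7 of the 10 genes, all but Psmb8, H2-Aa and H2-Ab1.

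FGF19/Aldafermin + MYC tumors were also set against sgTrp53 + MYC tumors. None of the 10 genes passed the test, while 23.7% of all tested genes did, and none had an unadjusted p under 0.05, beside 36.2% of all tested genes (edgeR). All 10 overlapped between these tumors, beside 2.42% of all tested genes lower and 3.28% higher without overlap. DESeq2 and the likelihood ratio test of edgeR also called 0 of the 10, beside 28.9% and 25.2% of all tested genes. The log2 fold changes ran from -0.19 for Nlrc5 (95% interval -1.27 to 0.90) to 0.59 for Tap2 (-0.28 to 1.47), with a median of 0.15 beside -0.02 for all tested genes. Without sgTrp53 + MYC replicate 3 the Nlrc5 value was 0.51. For B2m (-0.55 to 0.43), H2-K1 (-0.35 to 0.74), H2-D1 (-0.34 to 0.85), Psmb8 (-0.58 to 0.76) and Psmb9 (-0.63 to 0.70) the interval stayed within 2-fold either way. The sign turned for 7 of the 10 genes, all but H2-D1, Tap1 and Tap2, without 1 library or under another setting.

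**Figure D4:**
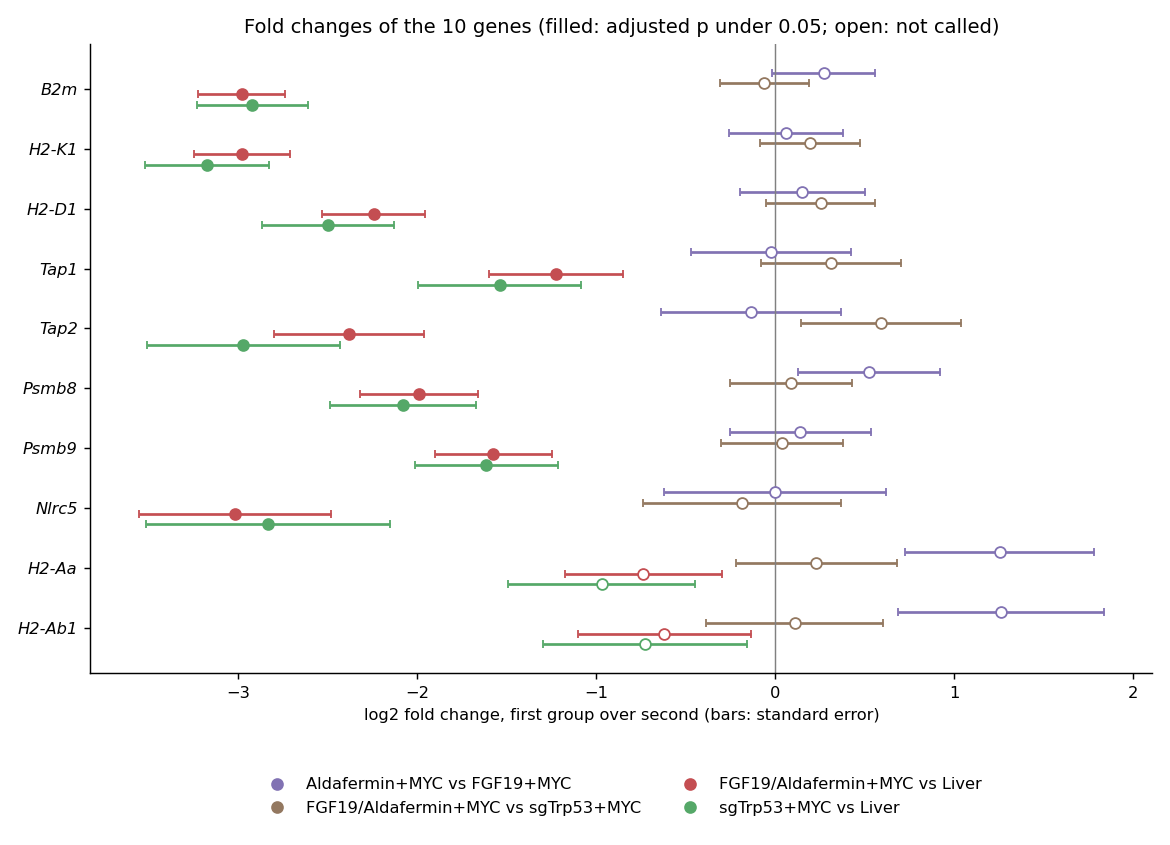
Log2 fold change of the 10 genes in the 4 comparisons, the first group named over the second, with the standard error as bars. Filled points passed an adjusted p of 0.05 and open points did not. Filled points occur only in the comparisons with livers, for the 8 genes from B2m to Nlrc5, at -1.22 to -3.18.

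Genes around them did differ between these tumors. In the loading list 5 of 8 were higher in FGF19/Aldafermin + MYC than in sgTrp53 + MYC tumors and none lower (median 0.60), beside 11.6% higher and 12.1% lower over all tested genes, led by Sec61a1 (0.87 ± 0.15, edgeR adjusted p = 0.00047), Tapbpl (0.80 ± 0.16) and the chaperone Hspa5 (0.79 ± 0.15). Of the other class I genes 2 were higher and 1 lower, and of these Fcgrt, the neonatal Fc receptor chain, had a mean of at least 5 CPM (0.66 ± 0.14, adjusted p = 0.00321). In the enhanceosome list Rfxap (-0.60 ± 0.12) and Rfx5 (-0.59 ± 0.20, adjusted p = 0.0426) were lower. No gene of the class II, interferon gamma or immunoproteasome lists passed.

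The ratios of proteasome subunits were not called different among tumors. The Psmb10 to Psmb7 ratio differed between FGF19/Aldafermin + MYC and sgTrp53 + MYC tumors by 0.41 (exact permutation test, p = 0.0473, adjusted p = 0.0811), and passed the threshold without Aldafermin + MYC replicate 4 (0.46, exact permutation test, adjusted p = 0.0420) or sgTrp53 + MYC replicate 1 (0.54, adjusted p = 0.0340). Between Aldafermin + MYC and FGF19 + MYC tumors it differed by -0.35 (exact permutation test, adjusted p = 0.202), and by -0.46 without FGF19 + MYC replicate 3 (exact permutation test, adjusted p = 0.0317).

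Per kilobase of the canonical transcript, the 10 genes kept a wide order of levels. In livers B2m was at 1888 CPM per kilobase, followed by H2-K1 at 1356 and H2-D1 at 458. H2-Aa at 45.8 and H2-Ab1 at 41.8 CPM per kilobase came next and differed by less than their SD, as did Tap1 at 13.5 and Tap2 at 12.7, while Psmb8 stood at 27.3, Psmb9 between it and Tap1, and Nlrc5 last at 4.31. In Aldafermin + MYC tumors the order of the means began in the same way. B2m was at 263 ± 113, H2-K1 at 176 ± 82.6 and H2-D1 at 102 ± 54.3 CPM per kilobase (SD, n = 5). H2-Aa and H2-Ab1 were at 42.4 and 42.1, and Nlrc5 was last at 0.534.

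The tumors varied more than the livers. The ratio of the highest to the lowest library of a group had a median over the 10 genes of 4.05 in Aldafermin + MYC, 2.91 in FGF19 + MYC and 5.18 in sgTrp53 + MYC tumors, against 1.46 in livers, and the median coefficient of variation was 59.3%, 46.3% and 60.9% against 18.1%. The same libraries stood high for most genes. Aldafermin + MYC replicates 3 and 4 and FGF19 + MYC replicates 2 and 5 were the top 2 of their group for 10 of 10 genes each, and sgTrp53 + MYC replicate 3 was the highest of its group for 10 of 10. At the low end, FGF19 + MYC replicate 1 was the lowest of its group for 8 genes, sgTrp53 + MYC replicate 4 for 9 and Aldafermin + MYC replicate 5 for 7.

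**Figure D5:**
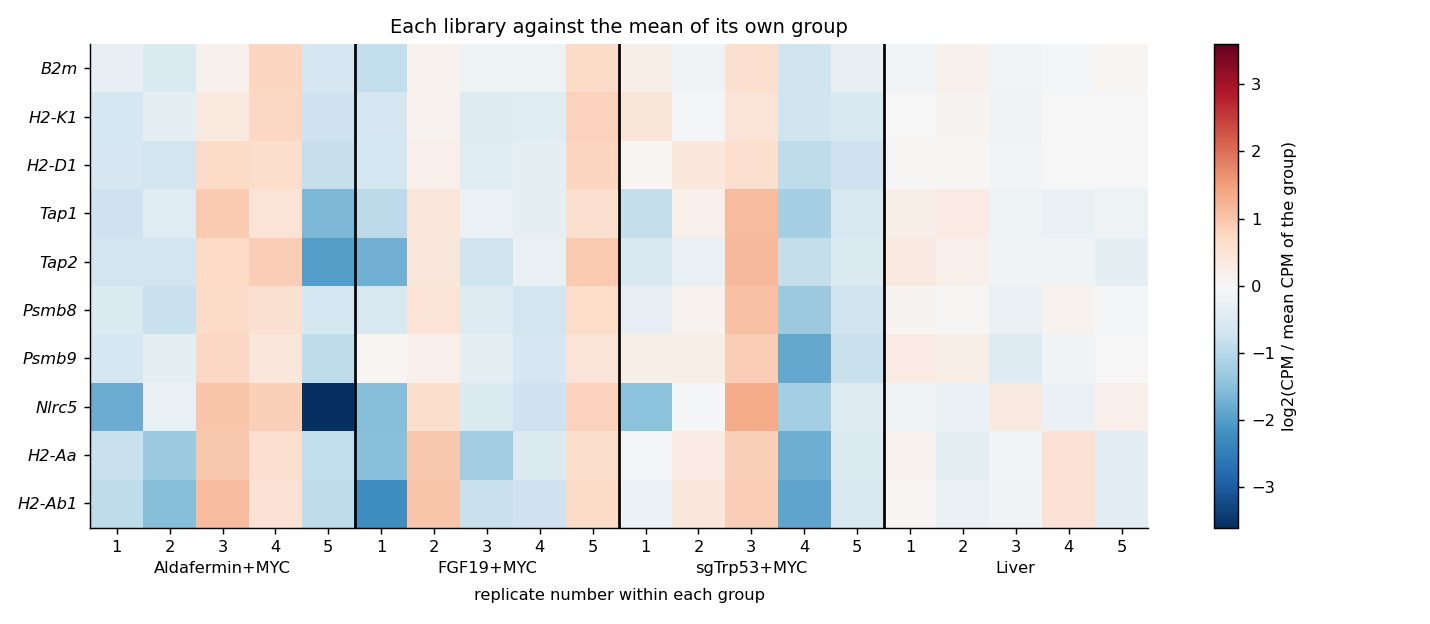
Log2 of each library's CPM over the mean CPM of its own group, for 10 genes and 20 libraries. Red is above and blue below the group mean. Aldafermin + MYC replicates 3 and 4, FGF19 + MYC replicates 2 and 5 and sgTrp53 + MYC replicate 3 are red for all 10 genes, and the livers are paler than the tumors.

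Over the 15 tumors the 8 genes of the class I axis, from B2m to Nlrc5, correlated with each other at r = 0.65 to 0.94 (28 pairs, median 0.83) in log2 CPM, and H2-Aa with H2-Ab1 at r = 0.98. Pairs of a class I axis gene and a class II gene gave r = 0.53 to 0.92 (16 pairs, median 0.72). With group means removed the class I axis pairs gave 0.68 to 0.95 (median 0.86) and the pairs with a class II gene 0.72 to 0.93 (median 0.84). The points share library preparation, depth and the makeup of the tumor, and no p is given for these descriptions.

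Leukocyte markers (Ptprc, Coro1a, Laptm5, Cd53 and Cd52) varied across the same tumors. Their summed level in replicates 1 to 5 was 105, 142, 317, 178 and 85.4 CPM in Aldafermin + MYC tumors, 81.9, 129, 103, 86.7 and 132 CPM in FGF19 + MYC tumors, and 61.8, 67.8, 121, 59.0 and 83.0 CPM in sgTrp53 + MYC tumors, against 65.7 to 95.3 CPM in livers. Aldafermin + MYC replicates 3 and 4, FGF19 + MYC replicates 5 and 2 and sgTrp53 + MYC replicate 3 had the highest sums of their groups, the libraries in which the 10 genes were also high. This was not particular to leukocytes. Summed endothelial markers and summed macrophage and Kupffer cell markers were also highest in Aldafermin + MYC replicate 3, FGF19 + MYC replicate 5 and sgTrp53 + MYC replicate 3. Stellate cell and fibroblast markers were highest in Aldafermin + MYC replicate 3, FGF19 + MYC replicate 2 and sgTrp53 + MYC replicate 5. Summed hepatocyte markers were highest in Aldafermin + MYC replicate 4 and FGF19 + MYC replicate 5, at 21303 and 27658 CPM. Among sgTrp53 + MYC tumors they were highest in replicate 1, at 10968 CPM. The summed interferon gamma list was highest in Aldafermin + MYC replicate 3, FGF19 + MYC replicate 2 and sgTrp53 + MYC replicate 3. Of the 5 leukocyte markers, 2 were higher and none lower in FGF19/Aldafermin + MYC tumors than in livers, beside 39.2% and 34.5% of all tested genes. In sgTrp53 + MYC tumors 0 were called, beside 69.9% of all tested genes. The part of leukocytes, of these other cells or of interferon gamma signaling in the spread of the 10 genes was not tested.

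Markers of cells that carry class II molecules were measured in the same way. The summed level of 8 macrophage and Kupffer cell markers was 85.0 to 500 CPM in tumors and 390 to 598 CPM in livers. Against livers 4 of the 8 were lower and 1 higher in FGF19/Aldafermin + MYC tumors, beside 34.5% and 39.2% of all tested genes. In sgTrp53 + MYC tumors 7 were lower and 1 higher, beside 33% and 36.9% of all tested genes. Clec4f, a defining Kupffer cell marker, averaged 8.06 ± 15.8, 22.5 ± 15.8 and 7.06 ± 5.73 CPM (SD, n = 5) in Aldafermin + MYC, FGF19 + MYC and sgTrp53 + MYC tumors. In livers it averaged 166 ± 21.5 CPM (SD, n = 5). Cd68, the 1 higher marker in both comparisons, averaged 79.1, 49.6 and 36.6 CPM in these tumors and 16.9 CPM in livers. All 6 hepatocyte markers were lower in both comparisons with livers, with medians of -3.98 and -4.00. The summed level of 7 dendritic cell markers was 4.56 to 29.4 CPM in tumors and 12.8 to 15.2 CPM in livers, that of 4 B cell markers 0.399 to 2.34 and 3.27 to 7.65 CPM, and that of 6 T cell markers 1.57 to 13.1 and 3.40 to 5.74 CPM. The part of these cell types in the differences from liver was not tested.

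The genes most like 4 of the 10 over the 15 tumors were named by Pearson's r of log2 CPM. For B2m they were Tmem184a, Ces3a, Gbp10, Art4 and Serpinb9 (r = 0.89 to 0.94, Spearman's rho = 0.84 to 0.94), and for Psmb8 the class II gene H2-Eb1 with Trim12c, Ifit3, Isg15 and Zbp1 (r = 0.92 to 0.94, rho = 0.83 to 0.96). For Nlrc5 they were Parp14, Znfx1, Ppp1r9b, Akna and Irf9 (r = 0.94 to 0.97, rho = 0.90 to 0.97), and for H2-Ab1 H2-Eb1, Cd74, H2-DMb1, Ms4a4c and Tmem50b (r = 0.90 to 0.98, rho = 0.90 to 0.98). Without the 2 tumors farthest from the median, r was 0.81 to 0.94, 0.87 to 0.92, 0.92 to 0.98 and 0.81 to 0.98 for the 4 lists.

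Several of these genes overlap genes on the opposite strand, and the strand setting of the counting is not given in the sources used here. Exons of Psmb9 and Tap1 overlap by 743 bases, those of H2-K1 and Gm53999 by 855, H2-D1 and 5430410E06Rik by 723, Tap2 and Gm15821 by 533, Psmb8 and Gm20496 by 498, and H2-Aa and H2-Eb1 by 118 bases. These overlaps are of GENCODE M39 exons, whereas the reads were assigned to RefSeq genes, for which overlaps were not computed. If strand was not used, reads from stretches where RefSeq exons overlap cannot be assigned to either partner.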

How the data were processed

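RNA sequencing data of 20 libraries (5 per group) were used. From stranded mRNA libraries the authors obtained paired reads of 150 bp, which they mapped to mm39 (HISAT2) and assigned to RefSeq genes (htseq-count). The deposited values are raw counts per gene symbol in 2 tables, without normalization; the submitters' processing notes also name bcl2fastq 2.20.0.422. Groups came from the sample labels, and 0 sample columns were left out. Reads on genes ranged from 18004977 to 66354724 per library, and no library was a copy of another (chi-square over degrees of freedom within groups at least 13.9).

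After removal of 5 summary lines, the 14333 genes that reached 1 CPM in 5 or more libraries were analyzed in R 4.3.3 with the quasi-likelihood test of edgeR 4.0.16, using TMM normalization, 1 model of the 4 groups, and Benjamini-Hochberg adjustment over all tested genes (threshold 0.05). FGF19/Aldafermin + MYC denotes the mean of both groups. Intervals are 1.96 standard errors either way. CPM values are TMM-normalized, and levels per kilobase use the GENCODE canonical transcript. Log2 ratios of subunits (prior count 2) were tested by exact permutation, adjusted over 12 tests. Alternatives were DESeq2 1.42.0, the likelihood ratio test of edgeR, other size factors, no filter, only the groups compared, a replicate block, offsets for GC content and exon length, each tumor group alone, and each library left out.

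The 10 genes and the lists were chosen with earlier results of these data known. Named beyond the 10 were up to 3 called genes per list and comparison by size of log2 fold change, with a mean of at least 5 CPM, Psmb5, Psmb6, Psmb7, Psmb10, Ciita, Cd74, Ifng and Irf1, the 5 tested genes with the highest Pearson's r to B2m, Psmb8, Nlrc5 and H2-Ab1, and cell type markers. A further gene that the rule names is not reported here. Hspa5, Canx, Pdia3 and Sec61a1 against livers, H2-Q10 levels, H2-DMb2, Psme2 and the kappa B, interferon response (H2-K1) and ATTGG motifs were added after the values or sequences were seen. Tests were also run on simulated counts in which few genes were changed, unlike the comparisons with livers, so nothing is concluded from them for those comparisons.

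Same-numbered libraries come from different mice. Of 30 same-numbered pairs, 6 had a correlation of deviations over 0.1 (range -0.33 to 0.33), so the numbers do not pair the libraries.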

Additional observations from a re-analysis of the deposited data

Results flagged for a closer look

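In 2 of 40 gene and group combinations, 1 library stood apart from the other 4 of its group by Dixon's ratio (critical value 0.71 for 5 values). Chance gives about 1 in 20, or 2 of 40. Both were in sgTrp53 + MYC replicate 3. Tap2 was at 14.3 CPM there and at 3.53 to 5.29 CPM in the other sgTrp53 + MYC tumors, a ratio of 0.836. Nlrc5 was at 11.6 CPM against 1.65 to 4.38 CPM, a ratio of 0.726. The same tumor had the highest summed leukocyte markers of its group, 121 CPM against 59.0 to 83.0 CPM. It also had the highest summed endothelial markers and the highest summed macrophage and Kupffer cell markers. The summed interferon gamma list was highest there too, at 690 CPM, whereas summed hepatocyte markers were highest in replicate 1. The part of these cells or of interferon gamma signaling in these values was not tested.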

How the results depend on the processing

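The number of the 10 genes called was 0 (Aldafermin + MYC against FGF19 + MYC), 0 (FGF19/Aldafermin + MYC against sgTrp53 + MYC), 8 (against livers) and 8 (sgTrp53 + MYC against livers) under every alternative run, the replicate block included, except for 9 with FGF19 + MYC alone against livers and 9 without sgTrp53 + MYC replicate 3. Below, A/F stands for Aldafermin + MYC against FGF19 + MYC, AF/P for FGF19/Aldafermin + MYC against sgTrp53 + MYC, and P/L for sgTrp53 + MYC against livers. Over all genes A/F gave 0 calls, 96 with DESeq2, 59 with the likelihood ratio test and 2 with DESeq2 size factors. Other size factors moved the median of all genes by at most 0.07, and no filter by -0.11 (AF/P, where 33.1% rather than 48.9% of calls were higher) and 0.25 (P/L), whereas only the compared groups moved P/L by 0.10. Signs of uncalled log2 fold changes turned as follows. In A/F Nlrc5 was 0.0074 (likelihood ratio test) and 0.026 (upper quartile) and Tap1 0.00019 (upper quartile). In AF/P, FGF19 + MYC alone gave H2-Aa -0.40, H2-Ab1 -0.52, Psmb8 -0.17 and Psmb9 -0.033. Aldafermin + MYC alone gave B2m 0.076. GC and length offsets gave B2m 0.035, H2-K1 -0.012, H2-Ab1 -0.14, Psmb8 -0.087 and Psmb9 -0.14, and no filter H2-Ab1 -0.016, Psmb8 -0.028 and Psmb9 -0.078. Against livers, H2-Ab1 was 0.012 with Aldafermin + MYC alone. The cause was not tested. Leaving out each library gave, in A/F, B2m -0.0036 to 0.51, H2-D1 -0.088 to 0.43, H2-K1 -0.21 to 0.38, Nlrc5 -0.42 to 0.32, Psmb9 -0.13 to 0.29, Tap1 -0.41 to 0.19 and Tap2 -0.48 to 0.24, and in AF/P B2m -0.20 to 0.13, H2-Aa -0.0041 to 0.55, H2-Ab1 -0.14 to 0.46, Nlrc5 -0.40 to 0.51, Psmb8 -0.11 to 0.55 and Psmb9 -0.20 to 0.38. H2-Aa in sgTrp53 + MYC tumors against livers ranged from -1.29 to -0.73. Ratios ranged from -0.46 to -0.15 (A/F) and 0.30 to 0.54 (AF/P) for Psmb10/Psmb7, from -0.54 to 0.11 (AF/P) for Psmb8/Psmb5, and from -0.27 to 0.31 (A/F), -0.28 to 0.44 (AF/P) and -2.16 to -1.44 (P/L, adjusted p up to 0.0635 by exact permutation) for Psmb9/Psmb6. With Nlrc5 at 12 counts in 1 tumor, its spread includes counting error.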
